A study of Mus musculus with 3 samples.

Results

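The tubulin isotypes described here are encoded by Tuba1a, Tuba1b, Tuba1c and Tuba4a for alpha tubulin and by Tubb5, Tubb4b, Tubb2a, Tubb2b, Tubb3 and Tubb6 for beta tubulin. They were chosen by name, as 10 genes of 55211 that could be followed across all samples. The samples were 3 separately grown cultures of Ba/F3, a mouse haematopoietic cell line that depends on interleukin-3 (IL-3), and murine IL-3 was present in the medium of each (RPMI with calf serum and antibiotics). They form 1 group with no treatment, mutant or control to set against it, so the data give levels and the differences between cultures. The study's title concerns ITPK1 and the killing of tumour cells by neutrophils through IgA; the cells themselves were profiled alone, as a strand-marked polyadenylated RNA library per culture read in single 50-base stretches.

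Microtubules are hollow filaments built from dimers of 1 alpha and 1 beta tubulin, and they carry the mitotic spindle and intracellular transport. Mammals encode each subunit in several genes, the isotypes, whose proteins differ mostly in a short acidic tail at the carboxy end, where enzymes add or remove residues and where motors and other microtubule proteins bind. Some isotypes are made in most dividing cells, while Tubb3 and Tubb2b are best known from neurons and Tubb1 from platelets and megakaryocytes. Cells also tune tubulin mRNA to the pool of free subunits, a co-translational decay called tubulin autoregulation.

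The coding ends, which encode the tails, are shown because several isotypes differ more there than over the rest of the coding sequence. Each line holds the last 60 coding bases with the stop codon, from the annotated principal transcript on GRCm38. Capitals mark bases that differ from Tuba1b (alpha) or from Tubb5 (beta) in a pairwise alignment, or have no aligned base there. Bases that the printed gene lacks are neither marked nor counted.
Tuba1c (chr15:99037950-99038009, plus strand): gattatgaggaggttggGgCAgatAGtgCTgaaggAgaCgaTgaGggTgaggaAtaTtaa
Tuba4a (chr1:75215622-75215681, minus strand): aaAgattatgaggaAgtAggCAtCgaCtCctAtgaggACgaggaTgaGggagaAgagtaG
Tubb5 (chr17:35834982-35835041, minus strand): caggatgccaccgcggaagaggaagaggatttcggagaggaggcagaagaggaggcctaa
Tubb4b (chr2:25222308-25222367, minus strand): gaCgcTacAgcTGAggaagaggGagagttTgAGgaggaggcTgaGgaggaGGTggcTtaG
Tubb2a (chr13:34074468-34074527, minus strand): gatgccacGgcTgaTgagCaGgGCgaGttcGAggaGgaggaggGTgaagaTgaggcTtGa
Tubb3 (chr8:123421623-123421682, plus strand): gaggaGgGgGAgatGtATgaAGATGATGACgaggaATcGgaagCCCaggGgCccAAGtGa
All of these ends lie in the last of 4 exons. The last codon before the stop is gag in Tuba4a and tat in Tuba1c. In Tuba1c, 14 of the last 60 bases differed from Tuba1b, but only 8 of the 1290 aligned bases before them did. Tuba1a differed from Tuba1b at 1 base of the last 60 and at 22 of 1296 before them. Tubb4b and Tubb3 were further from Tubb5 in both parts: Tubb4b differed at 17 of the last 60 bases and at 218 of 1278 before them, and Tubb3 at 29 of 60 and 222 of 1293. These counts take in bases with no aligned base in Tubb5. Over aligned bases alone, 229 of 1332 differed in Tubb4b and 233 of 1335 in Tubb3.

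Upstream of that end, several isotypes are identical over more than a read. The next stretch is 50 coding bases (182 to 231, counted from the start codon) that Tuba1a, Tuba1b and Tuba1c share letter for letter across the junction of exons 2 and 3, shown with Tuba4a, in which capitals mark the 9 bases that differ.
Tuba1b (chr15:98932836-98933017 with the intron, minus strand): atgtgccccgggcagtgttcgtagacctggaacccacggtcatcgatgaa
Tuba4a (chr1:75216971-75217256 with the intron, minus strand): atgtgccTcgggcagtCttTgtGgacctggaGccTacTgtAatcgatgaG
Tubb2a and Tubb2b share coding bases 432 to 481 in exon 4 in the same way, along with the pseudogene Tubb2a-ps2, and Tubb4b differs there at 8 bases, again in capitals.
Tubb2a (chr13:34075325-34075374, minus strand): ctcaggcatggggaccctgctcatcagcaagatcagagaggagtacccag
Tubb4b (chr2:25223165-25223214, minus strand): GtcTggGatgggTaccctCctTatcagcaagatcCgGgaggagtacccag

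Every read here was 50 bases long, so the share of 50-base windows that a transcript has in common with another gene bears on each level that follows. Among alpha members, 73.8% of the windows of Tuba1b, 72.9% of those of Tuba1a and 61.0% of those of Tuba1c also occur in a transcript of another gene, against 1.11% for Tuba4a. Within the coding stretch those shares were 95.6%, 90.4% and 90.6% for Tuba1b, Tuba1a and Tuba1c. The partners were mostly each other and processed pseudogenes: 14 of the 17 partner genes of Tuba1b are annotated as pseudogenes, and Tuba1b shares 1005 windows with Tuba1c and 761 with Tuba1a. Tuba1a and Tuba1b also overlap Gm49450, a protein-coding annotation on the same strand that joins exons of both and had 0 reads in every culture; without it the shares are 61.6% and 73.0%.

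Among beta members, 50.9% of the windows of Tubb4b, 49.6% of those of Tubb2a and 39.3% of those of Tubb2b were shared. Tubb4b shares windows only with 3 pseudogenes, led by Tubb4b-ps1 with 675, and Tubb2a shares 712 with Tubb2b. The other beta members were almost free of copies, with 0.115% of windows shared in Tubb5 and 0 in Tubb3 and Tubb6. Over whole coding sequences, alpha members were 85.6% to 98.4% identical to each other (median 91.7% over 6 pairs), beta members 81.6% to 96.5% (median 84.1% over 15 pairs), and an alpha against a beta member 66.8% to 71.9%.

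**Figure D1:**
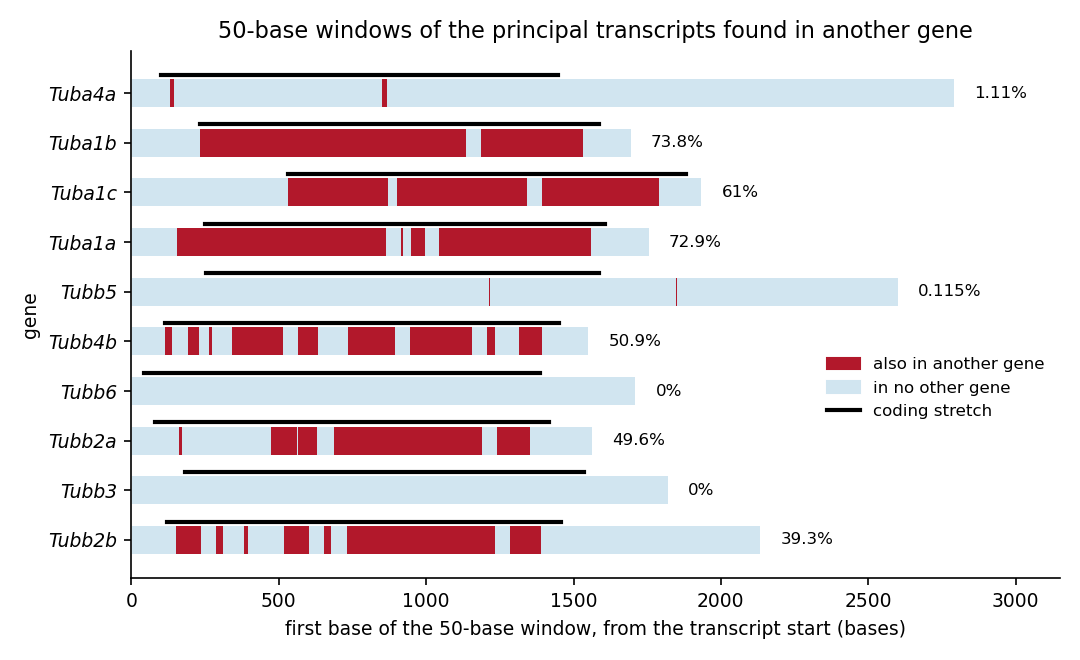
Principal transcripts of the 10 genes, drawn to scale along the first base of each 50-base window, from the transcript start. Red marks windows also found in a transcript of another gene, pale blue windows found in none, black lines the coding stretch, and the number at the right the share of shared windows: 73.8% in Tuba1b and 50.9% in Tubb4b, but 1.11% in Tuba4a and 0.115% in Tubb5.

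The cultures held 32044889, 33880292 and 37180883 reads counted to genes, so that 1 read was worth 0.0312, 0.0295 and 0.0269 CPM (counts per 1000000 reads) in cultures 1, 2 and 3. The limit for a gene with 0 reads was 0.0936, 0.0885 and 0.0807 CPM, the worth of 3 reads, for counting error only. A gene is called detected here at 1 or more CPM in each culture, which 10991 genes met. In the deposited table, culture 3 stands in another gene order than cultures 1 and 2 and was matched to them by gene; on the row with the identifier of Tubb5 it read 20.1 CPM unmatched. The labelled line was set against its markers: all 3 IL-3 receptor genes were detected, Csf2rb at 721 ± 21.7 CPM (SD, n = 3). Ba/F3 is often called pro-B, but only 2 of 10 early B-lymphoid markers were detected (Cd79b and Cd79a), and Pax5 had 1, 3 and 4 reads. No neuron marker of 10 and no fibroblast marker of 7 was detected. Of 6 megakaryocyte markers, Itga2b and Gp9 were detected, at 571 ± 40.1 and 3.22 ± 0.328 CPM, while Pf4 had a mean of 0.00984 CPM.

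Of the 10 tubulin members, 8 were detected, beside 19.9% of all genes and 45.9% of protein-coding genes. Together they took 0.305%, 0.314% and 0.317% of the reads in cultures 1, 2 and 3. The level of a gene in a culture cannot tell fewer cells with the transcript from less RNA per cell. Levels are given in CPM within a gene and as RPKM (CPM per kilobase of merged exons) between genes.

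Tubb5, which encodes a beta tubulin of dividing cells, was the most abundant member. It had 1767, 1840 and 1872 CPM in cultures 1, 2 and 3, a mean of 1826 ± 53.6 CPM (SD, n = 3). On the per-length scale its 549 ± 16.1 RPKM was higher than 99.5% of the detected genes, whose median was 8.65 RPKM. Culture 1 was the lowest and culture 3 the highest, and the whole range was a factor of 1.06.

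Tubb4b, another broadly expressed beta tubulin, also used in cilia, had 303, 314 and 324 CPM in the 3 cultures (314 ± 10.8 CPM, SD, n = 3), or 150 ± 5.15 RPKM. Its order of cultures was that of Tubb5. Tubb6 on chromosome 18, a beta tubulin with a divergent tail, stood at 65.8, 69.2 and 73.2 CPM (69.4 ± 3.66 CPM, SD, n = 3), or 28.5 ± 1.5 RPKM. All of these genes were lowest in culture 1 and highest in culture 3, and no culture stood apart from the others by more than a factor of 1.11.

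The remaining beta members, the neighbours Tubb2a (chr13:34074274-34078007) and Tubb2b (chr13:34126748-34130466) and Tubb3, were near or below the limit of detection. Tubb2a had 80, 105 and 101 reads, which is 2.50, 3.10 and 2.72 CPM, so it was detected at a low level (1.72 ± 0.189 RPKM). Tubb3, the beta tubulin used as a neuron marker, had 14, 22 and 14 reads, or 0.437, 0.649 and 0.377 CPM, under the detection level in every culture. Its locus overlaps 10592 bases of Gm20388, a protein-coding annotation on the same strand with 0 reads in every culture. None of the 1819 windows of the principal Tubb3 transcript occurs in a transcript of another gene, Gm20388 included. How reads of such an overlap of loci were counted is not given. Tubb2b, mainly a tubulin of developing neurons, had 0 reads in all cultures, which allows at most 0.0936, 0.0885 and 0.0807 CPM. All 10 neuron markers were under 1 CPM as well; the highest, Syp, had a mean of 0.548 CPM.

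Among alpha members, Tuba4a had the most reads. This alpha isotype is made without the final tyrosine that the other members end in and is well known from platelets and muscle. It had 660, 654 and 638 CPM in cultures 1, 2 and 3 (651 ± 11.2 CPM, SD, n = 3), or 176 ± 3.03 RPKM, higher than 98.2% of detected genes. It was lowest in culture 3 and highest in culture 1, but highest in culture 2 after scaling by trimmed mean of M values (652, 654 and 646 CPM) or median of ratios (651, 657 and 644 CPM). Its locus overlaps 1379 bases of the opposite-strand kinase gene Stk16, which had 2744, 2427 and 2619 reads against 21138, 22162 and 23723 for Tuba4a. Since the strand setting of the counting is not given, reads of the overlap could belong to either gene.

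Tuba1b (chr15:98931425-98934565), Tuba1a (chr15:98949837-98953703) and Tuba1c (chr15:99029891-99038110) lie close together, the first pair on the minus and Tuba1c on the plus strand, and encode nearly the same protein. Tuba1b, a general alpha tubulin of proliferating cells, had 133, 136 and 136 CPM (135 ± 2.0 CPM, SD, n = 3), or 72.0 ± 1.06 RPKM. Tuba1c had 112, 108 and 113 CPM (111 ± 2.69 CPM), or 48.5 ± 1.18 RPKM. Tuba1a, the alpha isotype most studied in developing neurons, had 10.2, 11.1 and 10.5 CPM (10.6 ± 0.467 CPM), or 5.88 ± 0.259 RPKM. The 3 genes thus kept the same order in every culture, with Tuba1b 1.48 ± 0.0476 times Tuba1c and 12.3 ± 0.419 times Tuba1a per kilobase.

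**Figure D2:**
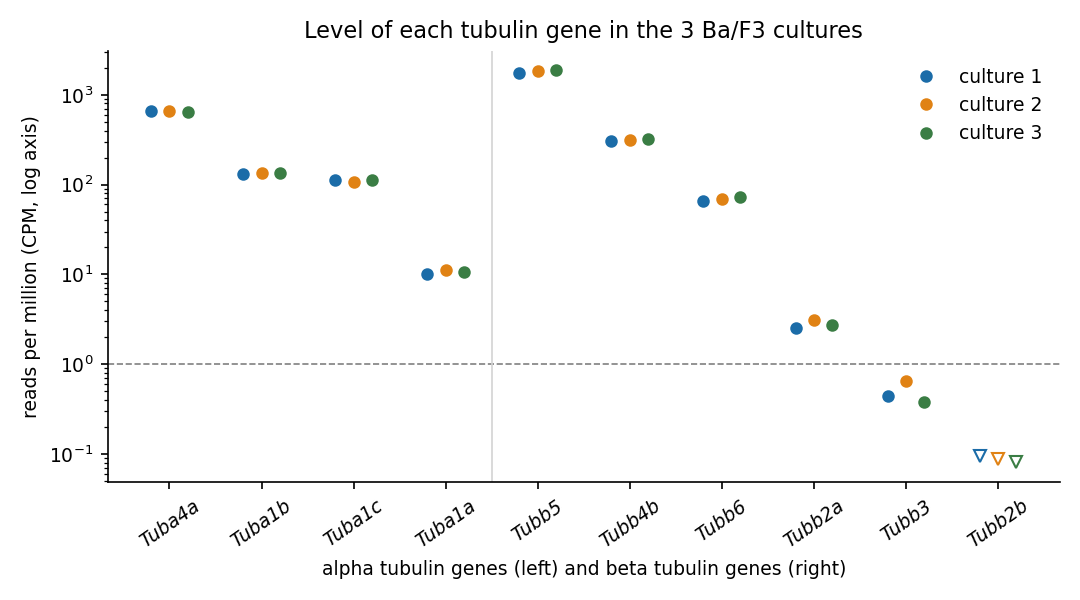
Level of each tubulin gene in CPM (log axis) in cultures 1, 2 and 3, with alpha genes on the left and beta genes on the right, each in order of level. Circles are single cultures, the dashed line is the detection level of 1 CPM, and open triangles mark the limit that 0 reads allow in Tubb2b. Points of a gene nearly coincide, from 1826 CPM in Tubb5 to 0.488 CPM in Tubb3.

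Per kilobase the order of levels was Tubb5, Tuba4a, Tubb4b, Tuba1b, Tuba1c, Tubb6, Tuba1a, Tubb2a, Tubb3 and Tubb2b. No neighbours in that order overlapped in their range over the cultures. The closest were Tuba4a and Tubb4b, with a ratio of 1.23, 1.17 and 1.11 in cultures 1, 2 and 3 (1.17 ± 0.0596, SD, n = 3), followed by Tuba1b and Tuba1c at 1.44, 1.54 and 1.47. This order counts every exon base as able to give a read that is kept for its gene.

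In the alpha pool, the summed RPKM of the 4 alpha members, Tuba4a held 58.7%, 58.4% and 57.4% in cultures 1, 2 and 3 (58.2 ± 0.677%, SD, n = 3). Tuba1b held 23.8 ± 0.467%, Tuba1c 16.1 ± 0.431% and Tuba1a 1.94 ± 0.0881%. In the beta pool, Tubb5 held 75.3%, 75.3% and 75.0% (75.2 ± 0.174%), Tubb4b 20.6 ± 0.108% and Tubb6 3.90 ± 0.0904%, while Tubb2a, Tubb3 and Tubb2b together stayed under the share of Tubb6. The summed beta level was 2.32, 2.43 and 2.50 times the summed alpha level in cultures 1, 2 and 3 (2.42 ± 0.0882), with the lowest ratio in culture 1.

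These shares depended on the length by which reads were divided. If reads that match several genes were left out by the authors' counting, which the sources used here do not state, then only windows found in no other gene could give a counted read. The number of such windows in the principal transcript was used as divisor in place of merged exon length. It put Tuba1b first among alpha members, with 42.9 ± 0.565% of the alpha pool, and Tuba4a second with 33.2 ± 0.618%. The ratio of Tuba4a to Tuba1b was 0.800, 0.774 and 0.753 in cultures 1, 2 and 3 on that scale, against 2.52, 2.44 and 2.37 per kilobase of exons, so the order of these genes turned in every culture. Tuba1c held 20.8 ± 0.510% of the pool by that divisor and Tuba1a 3.15 ± 0.136%. The divisor of Tuba1a, 475 windows, also leaves out windows shared only with the overlapping Gm49450. Tuba1a has 1279 shared windows with that gene counted and 1081 without it, and Tuba1b 1250 and 1236. Pool shares without Gm49450 were not computed. The 2 divisors differ in the transcripts they cover as well as in shared windows. Per kilobase of the principal transcript, Tuba4a was 2.96 ± 0.0893 times Tuba1b. Over all its transcripts, Tuba1b has 624 own windows, against 444 in the principal one, and Tuba4a 3812 against 2760.

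The beta pool kept its order when divided by own windows of the principal transcript. Across both pools, Tubb4b then stood at 412 ± 14.1 CPM per 1000 own windows, above Tuba1b at 304 ± 4.49 and Tuba4a at 236 ± 4.07. Tubb5 held 60.6 ± 0.200% and Tubb4b 35.6 ± 0.151%, so Tubb5 was 1.71 ± 0.0127 times Tubb4b. That ratio was 3.65 ± 0.0271 per kilobase of exons and 3.51 ± 0.0261 per kilobase of the principal transcript. Over all its transcripts, Tubb5 has 3362 own windows, against 2597 in the principal one, and Tubb4b 1295 against 761. By own windows of the principal transcript, the beta to alpha ratio was 1.58, 1.64 and 1.68 (1.64 ± 0.0495), lower than per kilobase in every culture. Beta tubulin thus exceeded alpha tubulin in mRNA on both scales over these 10 genes.

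**Figure D3:**
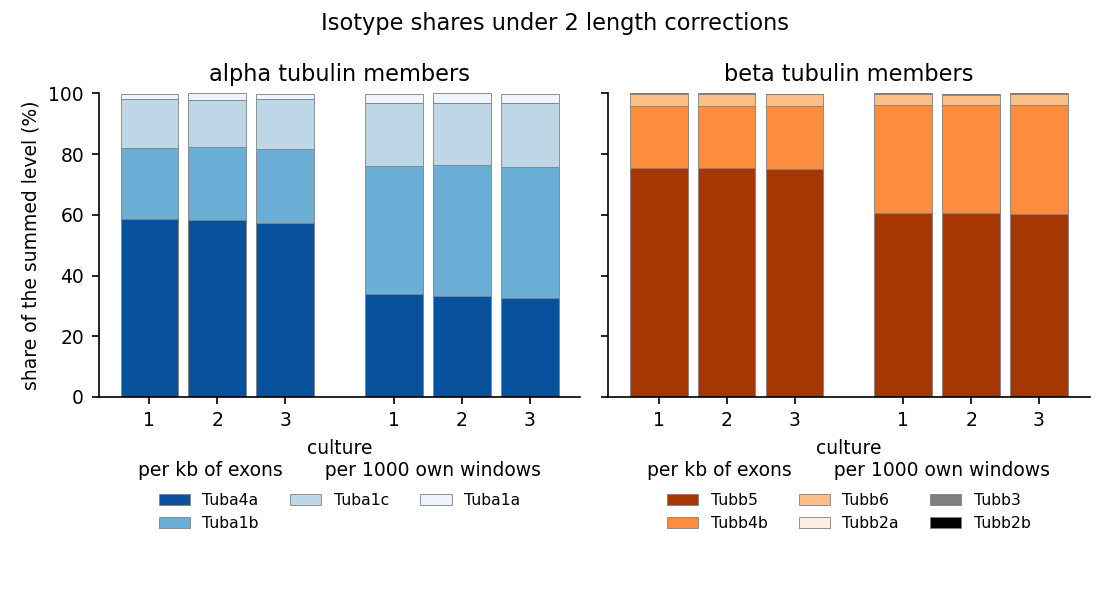
Share of each isotype in the summed level of the 4 alpha members (left panel, blues) and of the 6 beta members (right panel, oranges), in percent, for cultures 1, 2 and 3. In each panel the left 3 bars divide reads by exon length. The right 3 divide by the number of 50-base windows of the principal transcript found in no other gene. Tuba4a holds 58.2% of the alpha pool by exon length and 33.2% by own windows, Tuba1b 23.8% and 42.9%.

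Genes that have no window of their own numbered 2870, and they held 0.0114% of all reads. The most reads in 1 of these genes, a pseudogene, were 2220 over the 3 cultures. A read was counted for 5.26% of the genes with no own window, against 43.7% of genes with an own window. Detection was 0.418% (12 genes) against 21.0%. Among pseudogenes the order was the other way, with a read in 11.0% of those with no own window and in 10.1% of those whose windows are all their own, and detection in 1.12% and 0.360%. Tubulin pseudogenes that share windows with a member numbered 20, and 17 of them had at least 1 read. Together they had 799 reads over the 3 cultures, 0.248% of the members' 321965 reads. Only Gm5620, Gm15599 and Gm6682 had a mean of at least 1 CPM, at 1.99, 1.15 and 1.14 CPM. Gm3226, which shares 802 windows with Tuba1b, had 28, 15 and 37 reads, beside 4251, 4605 and 5067 for Tuba1b itself. How the reads of shared windows were handled was not tested further.

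The other alpha and beta tubulin genes added a further abundant alpha isotype. Tuba8, an alpha tubulin of divergent sequence, had 191, 199 and 188 CPM, more reads than Tuba1b in every culture, and 85.2 ± 2.46 RPKM. Only 0.181% of its windows are shared, and per own window it was 0.287 ± 0.00865 times Tuba1b, against 1.18 ± 0.0357 times per kilobase of exons. Adding the remaining alpha and beta genes to the pools gave Tuba8 22.0 ± 0.459% of the alpha pool per kilobase and lowered Tuba4a to 45.4 ± 0.493% and the beta to alpha ratio to 1.91 ± 0.0665. By own windows those pools gave Tuba8 11.0 ± 0.281%, Tuba4a 29.6 ± 0.510%, Tuba1b 38.2 ± 0.504% and a beta to alpha ratio of 1.47 ± 0.0435. Tubb4a, mainly a tubulin of neurons and oligodendrocytes, had 27.1, 20.8 and 21.2 CPM. Tubb1, the platelet isotype, had 12, 11 and 10 reads and was not detected. Tuba3a, Tuba3b and Tubal3 had between 0 and 5 reads in any culture.

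To set differences between cultures against the noise of counting, a chi-square test was run for each of 13141 genes with a mean of at least 10 reads, with Benjamini-Hochberg adjustment over all of them and a threshold of 0.05. The test asks whether these libraries differ by more than random sampling of reads would give, and not whether conditions differ. Over all genes, 32.8% were called. Of 9 members tested, 4 were called, which is 44.4%, and all 4 were among the 6 members with a mean of at least 1000 reads, where 45.0% of all genes were called. Above 10000 reads, Tubb5, Tuba4a and Tubb4b were all called, beside 83.4% of genes; between 1000 and 10000 reads, only Tubb6 of Tubb6, Tuba1b and Tuba1c was, beside 41.2%. The members' share of calls was therefore near the background for genes of their depth.

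By the chi-square test, the called members were Tubb5 (adjusted p = 2.6e-22), Tubb4b (2.5e-05), Tuba4a (0.00497) and Tubb6 (0.00567). Their differences were small: the highest culture was 1.06 times the lowest in Tubb5, 1.07 in Tubb4b, 1.03 in Tuba4a and 1.11 in Tubb6. The 3 called beta genes were highest in culture 3 under all 3 scalings, while the highest culture of Tuba4a depended on the scaling. After scaling by trimmed mean of M values, 3 members were called, without Tuba4a, beside 34.3% of genes. Without culture 1, Tubb5 was called of the members, beside 11.1% of all genes. Without culture 2 the 4 calls remained, beside 29.5%, and without culture 3 Tubb5 and Tubb4b were called, beside 20.2%. Allowing for a spread of 7.30% between cultures common to all genes (negative binomial), no member was called and none had an unadjusted p under 0.05, while 3.49% of all genes were called and 9.31% had such a p.

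Tuba1b, Tuba1c and Tuba1a were not called, with adjusted p of 0.536, 0.215 and 0.653 and ratios of 1.03, 1.05 and 1.09. Nor were Tubb2a and Tubb3, with adjusted p of 0.489 and 0.381 at ratios of 1.24 and 1.72 and with a mean of under 100 reads. The median ratio was 1.05 over the 6 deep members, beside 1.07 over all genes with 1000 to 10000 reads and 1.06 above 10000.

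**Figure D4:**
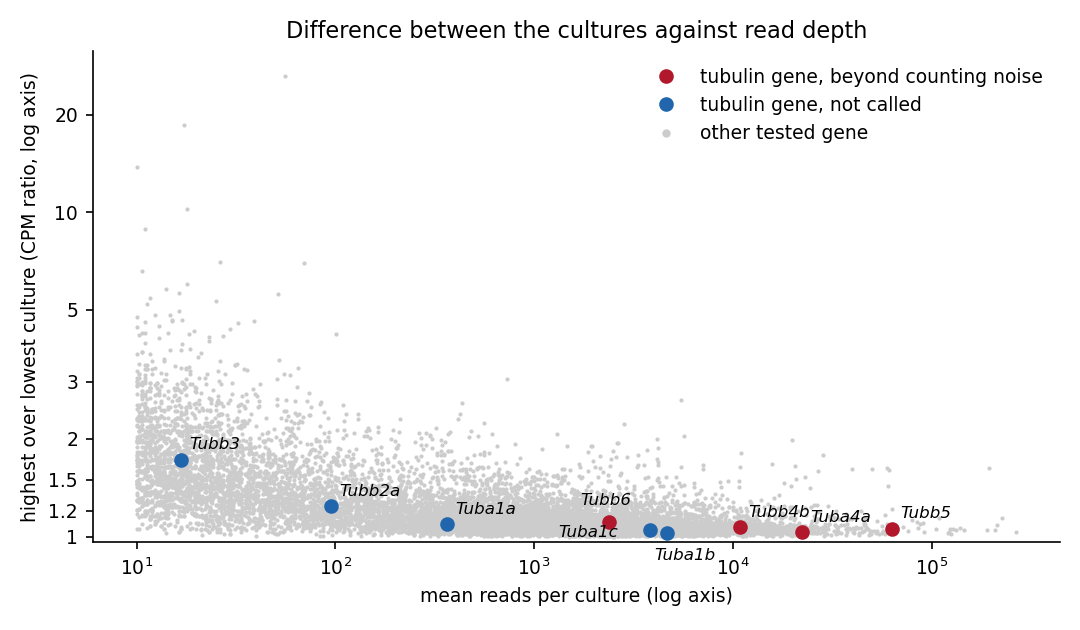
Ratio of the highest to the lowest culture in CPM (log axis) against the mean reads per culture (log axis) for every gene tested. Large red points are tubulin genes that differed beyond counting noise, blue points those that were not called, and grey points the other tested genes. Tubb5 lies at a ratio of 1.06 and Tubb3 at 1.72, both within the cloud of genes of like depth.

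Genes that make, fold, nucleate and modify tubulin were counted from 14 lists with 98 measured genes. Of these, 70 were detected, or 71.4%, beside 45.9% of protein-coding genes. Of 72 tested, 30 were called between cultures, or 41.7%. This stood beside 32.8% of all genes and 45.0% of those with a mean of at least 1000 reads. The median ratio of the list genes was 1.06, beside 1.11 over all genes tested. Over all genes by depth, the median was 1.07 at a mean of 1000 to 10000 reads and 1.06 above 10000. Among the nucleating tubulins, Tubg1, the gamma tubulin of the spindle poles, stood at 52.5, 55.0 and 55.1 CPM, while Tubg2 had at most 1 read in a culture. Tube1 and Tubd1, the epsilon and delta tubulins of centrioles, averaged 33.0 ± 2.98 and 10.9 ± 0.133 CPM. All 9 genes of the gamma-tubulin ring complex, which starts new microtubules, were detected, led by Mzt1 at 121 ± 4.61 CPM.

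Folding genes were detected without exception. The CCT chaperonin, the ring that folds tubulin and actin, had 8 of 8 genes detected, with Cct2 at 600 ± 4.14 CPM and a summed 3855, 3919 and 3934 CPM in cultures 1, 2 and 3. Prefoldin, which hands tubulin to CCT, had 6 of 6, with Pfdn5 at 103 ± 3.41 CPM, and the tubulin folding cofactors, which assemble the dimer, 7 of 7, with Tbcd at 111 ± 1.25 CPM. Both autoregulation genes were detected: Ttc5, which recognises nascent tubulin, at 37.8 ± 2.69 CPM and Scaper at 41.9 ± 1.24 CPM.

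Genes that modify tubulin were detected in part. The acetylation list, whose enzymes act on a lysine inside the microtubule and not on the tail, had 3 of 3, with the deacetylases Sirt2 at 61.7 ± 2.18 and Hdac6 at 40.4 ± 4.02 CPM and the acetyltransferase Atat1 at 6.77 ± 1.52 CPM. Of the tyrosination list, Ttl, the ligase that adds the final tyrosine to alpha tubulin, had 0, 0 and 2 reads, beside Vash1, a detyrosinating protease, at 2.59, 3.48 and 3.90 CPM and its partner Svbp at 15.3 ± 0.975 CPM. Of the 12 glutamylase and glycylase genes 5 were detected, led by Ttll4 at 97.4 ± 2.78 CPM, and of 6 deglutamylase genes 2, Agtpbp1 and Agbl5, at 47.7 ± 4.10 and 45.7 ± 3.82 CPM.

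Among proteins that act on microtubules, 11 of 15 stabilisers and plus-end factors were detected. The highest were Ckap5, a microtubule polymerase, at 256 ± 10.8 CPM, the end-binding gene Mapre1 at 245 ± 7.05 CPM and Tpx2 at 236 ± 9.77 CPM. Not detected in that list were Map2, which averaged 0.573 CPM, Mapre3, Map1b and Mapt. Map1a was detected, at 54.5 ± 6.48 CPM. Stathmins and depolymerising kinesins had 4 of 8, led by Kif2a at 131 ± 3.23 CPM and Kif2c at 86.8 ± 2.77 CPM. Stmn1, which binds free dimers, stood at 84.7 ± 1.56 CPM, and Stmn2, Stmn3 and Stmn4 at no more than 2 reads in a culture. Severing enzymes had 6 of 8, led by Fignl1 at 79.8 ± 1.45, Katna1 at 65.4 ± 1.89 and Spast at 65.2 ± 1.26 CPM.

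**Figure D5:**
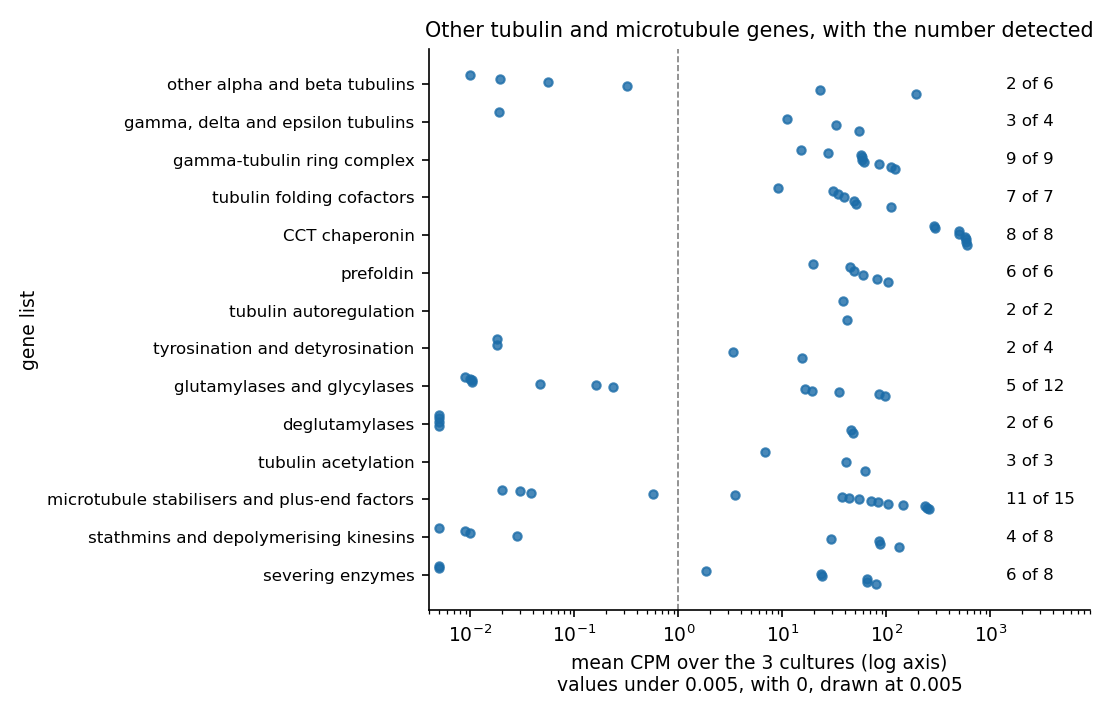
Mean level over the 3 cultures in CPM (log axis) for the genes of 14 lists, 1 point per gene, with the number detected of the number measured at the right. The dashed line is 1 CPM, and values under 0.005 are drawn at 0.005. All CCT, prefoldin, cofactor and ring complex genes lie above the line, while 5 of 12 glutamylase and glycylase genes do.

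The genes whose pattern over the cultures was nearest to that of the members' summed CPM were Sars, Zdhhc21 and Ctbp2, by the distance of log2 CPM deviations among 6230 genes with at least 1000 reads in every culture. With only 3 cultures such likeness is common: 1864 genes lay within 0.05 of that sum on the log2 scale.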

How the data were processed

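RNA of 3 separate Ba/F3 cultures was made into stranded polyadenylated libraries and read as 50-base single ends. Per the series' design text and the submitters' processing notes, the authors placed reads on GRCm38 with HISAT2 and, per the design text, counted them with GenSum. Not given in the sources used here are versions, the strand setting, the annotation release and what was done with reads matching several places. As deposited, the authors' log2 values are log2(reads per 10000000 + 1), and undoing this gave whole reads for 100% of values within 0.01. The planned tests assumed counts, and the recovered reads were used. No row with reads carries an identifier and a symbol of 1 gene: cultures 1 and 2 follow the identifier and culture 3 the symbol and coordinates. Culture 3 was rejoined through GENCODE M21 (GRCm38) by coordinates (54907 rows) or symbol (344); 235 rows had no match, leaving 55211 genes. Across genes with a read, Pearson's r of log2(CPM + 1) between cultures 1 and 3 was 0.9981 rejoined and 0.9949 on deposited rows.

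Reads were scaled to column sums (CPM) and to merged exon length (RPKM). The chi-square heterogeneity test used genes with a mean of at least 10 reads and Benjamini-Hochberg adjustment (Python 3.11.15, numpy 2.4.6, scipy 1.17.1, pandas 2.3.3). Windows were compared on the same strand over all GENCODE M21 transcripts. Coding sequences were aligned with Biopython 1.88; a planned identity of proteins was replaced by that of coding sequences. Printed sequences come from GENCODE M21 transcripts. Genes to name were drawn from all members, all other tubulins, and the 3 highest and up to 3 undetected genes of each list. Pseudogenes averaging 1 CPM or more and the 3 nearest patterns were added. Not every gene so drawn is printed. Gm3226, Stk16 and Gm49450 were named after their values were seen. Gm20388, Pf4, Map1a, Mapt, Tubb4b-ps1 and Tubb2a-ps2 also lie outside this rule. Members and lists were chosen with earlier results of these data known. Matcap1 found no match. The code was tested on simulated data.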

Additional observations from a re-analysis of the deposited data

How the results depend on the processing

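Detection of members gave 8 at 1 CPM and 7 at 5 CPM, and of list genes 70 and 67. The number of members that differed between cultures was 4, fell to 3 under both other scalings, was 0 under the negative binomial and ranged from 1 to 4 when a culture was left out. The chi-square call of Tuba4a was lost under trimmed mean of M values (adjusted p = 0.560), median of ratios (0.187), without culture 1 (0.0626) and without culture 3 (0.622); that of Tubb4b without culture 1 (0.111); that of Tubb6 without culture 1 (0.211) and culture 3 (0.276). The cause was not tested. Tubb5 kept its call in all but the negative binomial (0.999994). All genes called numbered 4304, and 1460, 3900 and 2655 without cultures 1, 2 and 3.

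Lengths moved the pools. By the longest transcript, which is the principal one for every member, the beta to alpha ratio was 2.52, and the shares were 21.0% for Tuba1b, 62.2% for Tuba4a, 74.4% for Tubb5 and 21.2% for Tubb4b. By own windows these were 1.64, 42.9%, 33.2%, 60.6% and 35.6%. Without length correction the shares were 14.9%, 71.7%, 82.5% and 14.2%. On rows as deposited, where culture 3 holds other genes, the ratio was 1.78 and the shares 23.2%, 59.0%, 51.3% and 40.8%. With the other alpha and beta tubulins in the pools, an alternative chosen after seeing the data, the values were 1.91, 18.6%, 45.4%, 74.2% and 20.3%. The order of Tuba1b and Tuba4a turned by own windows alone among these alternatives.

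No paired analysis was possible because the samples form 1 group. Depth limits Tubb3, with 14 to 22 reads in a culture, and Tubb2b, with 0.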
